A study of Mus musculus with 6 samples.

Results

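T cells, natural killer (NK) cells and innate lymphoid cells carry transcripts that macrophages lack or hold at low levels. A set of 34 such genes was examined by RNA-seq of sorted macrophages of the colonic lamina propria. The members were listed by symbol, with earlier results of these data known, so their counts are not independent evidence. All 34 were found among the 25124 gene rows of the table of TPM, which is transcript abundance scaled for exon length and sequencing depth. There were 3 libraries from wild type C57BL/6 mice and 3 from C57BL/6 mice with macrophage-specific overexpression of E4BP4, the product of Nfil3, which binds DNA through a basic leucine zipper. All mice were 8 weeks old and both groups received the same colitis protocol, 2.0% dextran sulfate sodium (DSS, a polymer that injures the colonic epithelium) in the water for 7 days and plain water for 7 days, with collection on day 14. The labels do not give the promoter that drives the transgene, the gate of the cell sort, or whether the replicates were separate animals. The p-values therefore rest on a spread between replicates that may be technical alone. The titles of all 3 transgenic libraries name E4BP4, whereas the genotype field of replicates 2 and 3 names E4BP5 and E4BP6, and the titles were followed.

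The T cell receptor signals through the CD3 chains and the zeta chain, which the kinase Lck phosphorylates and the kinase Zap70 then binds, with Lat as the scaffold for later steps. NK cells lack this receptor and use activating receptors such as NKG2D, and cytotoxic T cells and NK cells share granzymes, perforin and interferon gamma, whose gene is driven by the transcription factor T-bet. E4BP4 is itself known as a factor that NK cells and other innate lymphoid cells need for their development. In the colon these cells lie in the lamina propria and epithelium close to macrophages.

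The 6 libraries held 13973424 to 15063958 reads in genes, recovered from the steps of the TPM values. The 14 macrophage markers examined were all present, with a summed level of 20486 to 20712 TPM for wild type, against 19878 to 19972 TPM for transgenic. Of these 14 markers 5 were called higher and 5 lower in transgenic libraries by the limma test described below. Adgre1, which encodes F4/80, was at 361 ± 1.63 TPM for wild type, against 426 ± 2.82 TPM for transgenic (mean ± SD, n = 3 per group). Among the lower ones, mean Lyz2 fell from 6670 to 5945 TPM and mean Cd14 from 1785 to 1457 TPM. Nfil3 was at 117, 119.9 and 119 TPM for wild type, against 133, 134 and 141 TPM for the transgenic replicates, and no transgenic library overlapped the wild type ones (limma log2 difference 0.19 ± 0.03 SE, adjusted p = 0.00270). The 34 lymphoid members together summed to 103 to 108 TPM for wild type, against 138 to 143 TPM for transgenic. In bulk libraries more lymphoid cells, more RNA per lymphoid cell and low transcription in the macrophages cannot be told apart.

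Cd8a, Cd8b1, Cd2, Cd6, Gzma, Gzmb, Nkg7, Ifng, Klrk1 and Tbx21 were higher in transgenic libraries, and none of the 4 CD3 complex genes or the 5 receptor-proximal kinase and adaptor genes was called. The test was limma on log2(TPM + 1) across all genes whose mean over the 6 libraries reached 0.5 TPM, with p adjusted by the Benjamini-Hochberg method and called below 0.05. Of the 34 members 30 passed this filter, 10 were called higher and 0 lower. Ifng, Cd96 and Gzmk had a wild type mean below 0.5 TPM and passed only through their transgenic libraries. Of all 13463 genes tested 7.93% were called higher and 12.3% lower. Among the 9301 tested genes below a mean of 20 TPM, the range that holds every tested member, 5.52% were called higher and 7.33% lower. Without transgenic replicate 2 the count of called members was 6. Under upper-quartile scaling 13 members were called, and 69.6% of the calls over all genes were higher, against 39.3% without it. The 30 tested members had a median log2 fold change of 0.36 and all tested genes a median of -0.01. No member was lower at an unadjusted limma p below 0.05, and 0 were called lower by limma's voom on the recovered reads or in the authors' deposited table. The groups did not overlap for 14 of the 30, all higher in transgenic libraries, where 16.5% of all tested genes were higher without overlap. The 4 members that were not tested, Prf1, Klrb1c, Ncr1 and Eomes, had at most 52 reads in either group.

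**Figure D1:**
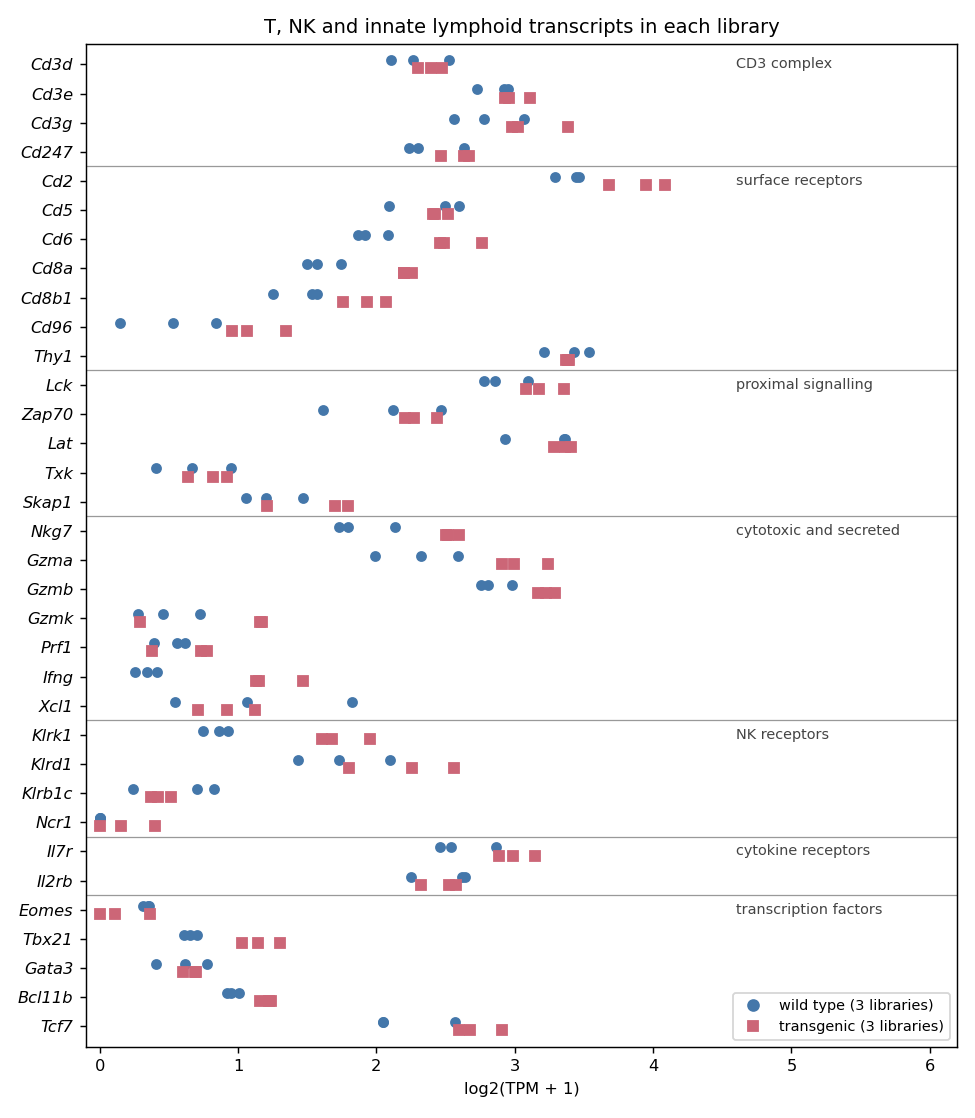
Level of each of the 34 members in every library, on a log2(TPM + 1) axis, with wild type libraries as circles and transgenic libraries as squares, ordered by role. The groups stand apart for Cd2, Cd6, Cd8a, Gzma, Klrk1 and Ifng and lie over each other for Cd3d, Cd5, Thy1 and Il2rb.

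Promoters were searched because E4BP4 binds DNA, and 4 are shown. They are those of Ifng, with the match closest to the E4BP4 element, and of the 3 called members that hold a RUNX element. RefSeq promoters (GRCm38.p6, the assembly of mm10, which the submitters' notes name) were found for 27 of the 34 members, and the 250 bases before each gene start were searched on both strands. Capitals mark the motif matches, and sequences run 5′ to 3′ on the strand of the gene.
Ifng, chr10:118440796-118441045, plus strand: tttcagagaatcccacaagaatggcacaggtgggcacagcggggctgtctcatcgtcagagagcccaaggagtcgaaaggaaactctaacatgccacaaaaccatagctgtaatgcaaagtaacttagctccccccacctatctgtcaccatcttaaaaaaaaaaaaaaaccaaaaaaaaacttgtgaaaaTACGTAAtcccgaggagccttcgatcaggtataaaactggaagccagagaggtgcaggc
Klrk1, chr6:129623865-129624114, minus strand: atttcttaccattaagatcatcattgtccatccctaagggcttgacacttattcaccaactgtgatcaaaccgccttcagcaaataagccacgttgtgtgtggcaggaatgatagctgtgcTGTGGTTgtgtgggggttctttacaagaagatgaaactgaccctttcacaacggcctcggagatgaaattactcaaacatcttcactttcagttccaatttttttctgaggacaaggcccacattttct
Gzma, chr13:113100982-113101231, minus strand: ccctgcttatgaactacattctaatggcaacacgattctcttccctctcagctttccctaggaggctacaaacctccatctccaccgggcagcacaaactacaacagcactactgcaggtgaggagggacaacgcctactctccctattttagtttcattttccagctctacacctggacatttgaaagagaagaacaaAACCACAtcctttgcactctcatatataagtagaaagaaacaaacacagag
Gzmb, chr14:56262335-56262584, minus strand: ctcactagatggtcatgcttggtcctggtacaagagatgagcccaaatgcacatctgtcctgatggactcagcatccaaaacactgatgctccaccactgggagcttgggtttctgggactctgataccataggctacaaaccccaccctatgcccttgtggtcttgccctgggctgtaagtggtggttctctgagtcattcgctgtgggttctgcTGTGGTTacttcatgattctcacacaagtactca
The E4BP4 element was searched as TTACGTAA and TTATGTAA and was found in 0 of the 27 members' promoters and in 0.931% of all 32851 promoters. The core TACGTAA, whose letters lie within the first of these and which was searched with the Ifng promoter in mind, stood 59 bases before the start of Ifng, in capitals above. It was in 0.432% of all promoters and in no other member's. TGTGGTT, a RUNX element, or its reverse complement was in 9 of the 33 promoters listed for the 27 members (27.3%) and in 4.40% of all promoters. The 9 belong to 8 genes, Cd96, Gzma, Gzmb, Klrk1, Lck, Ncr1, Txk and Xcl1, of which Gzma, Gzmb and Klrk1 were called higher. The T-box half-site GGTGTGA was in those of Gzmk, Nkg7 and Xcl1 and in 3.33% of all promoters. CTTTGAA, a TCF element, was in those of Bcl11b, Gzmk and Txk and in 4.46%. These matches describe letters in a window and no binding was measured.

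The chains of the T cell receptor complex were present in every library and none was called by limma (0 also at unadjusted p below 0.05, by voom and in the authors' deposited table). Cd3e, which encodes CD3 epsilon, was at 6.58, 5.62 and 6.72 TPM across wild type replicates 1 to 3, against 6.79, 6.63 and 7.65 TPM across transgenic replicates 1 to 3. Cd3d, which encodes CD3 delta, was at 3.81, 3.31 and 4.76 TPM for wild type, against 4.26, 3.94 and 4.55 TPM for the transgenic replicates. Both genes' groups overlapped, and the 95% intervals of the log2 fold change were -0.08 to 0.35 for Cd3e and -0.19 to 0.37 for Cd3d. Cd3g, the gamma chain gene, was at 4.89, 5.86 and 7.39 TPM for wild type, against 7.13, 9.47 and 6.90 TPM for the transgenic replicates (limma log2 difference 0.33 ± 0.15 SE, adjusted p = 0.182). Its highest wild type library stood above 2 of the 3 transgenic ones. Cd247, which encodes the zeta chain shared with NK cell receptors, was at 3.92, 3.71 and 5.20 TPM for wild type, against 5.19, 5.37 and 4.52 TPM for the transgenic replicates, with an interval of -0.09 to 0.49. Its position overlaps that of Pou2f1 on the opposite strand, and the library kit is not described as keeping strand, so reads of the pair may be mixed. The 3 CD3 genes lie together on chromosome 9 between 44969572 and 45009611 (mm10). All 4 intervals of the complex include 0, which does not show that the levels were equal.

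The kinases and adaptors downstream of the receptor were all positive in fold change and 0 of 5 were called. Lck was at 7.55, 5.84 and 6.26 TPM for wild type, against 7.47, 9.25 and 8.02 TPM for the transgenic replicates, with 1 wild type library within the transgenic range (limma log2 difference 0.29 ± 0.11 SE, adjusted p = 0.103). Zap70 ranged widely in wild type, at 4.52, 2.07 and 3.36 TPM, and lay between 3.61 and 4.42 TPM in transgenic libraries. Lat was at 9.27, 9.23 and 6.61 TPM for wild type, against 8.75, 9.28 and 9.60 TPM for the transgenic replicates, and only wild type replicate 3 stood below the rest. Skap1, an adaptor that links the receptor to integrin adhesion, had means of 1.38 TPM (wild type) and 2.01 TPM (transgenic) with overlapping groups (limma adjusted p = 0.269). Txk, a Tec family kinase, had means of 0.614 TPM (wild type) and 0.738 TPM (transgenic), from 50 and 62 reads in the wild type and transgenic groups. The unadjusted limma p was below 0.05 for Lck alone among these 5, where voom called 1, and 2 were called in the authors' deposited table.

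Surface receptors divided into 4 that were called and 3 that were not. Cd8a, which encodes the alpha chain of the CD8 coreceptor, was at 1.82, 2.35 and 1.97 TPM across wild type replicates 1 to 3, against 3.58, 3.59 and 3.78 TPM across transgenic replicates 1 to 3, and the means stood in a ratio of 1.78 (log2 difference 0.61 ± 0.10 SE, limma adjusted p = 0.00499). Every transgenic library was above every wild type one. Cd8b1, the beta chain gene, also on chromosome 6, was at 1.38, 1.96 and 1.89 TPM for wild type, against 3.21, 2.38 and 2.81 TPM for the transgenic replicates, a ratio of 1.60 (limma adjusted p = 0.0460). Its call was lost without any 1 of the 6 libraries, with adjusted p from 0.0544 to 0.136. The CD8 alpha homodimer is also known on cross-presenting dendritic cells, while the beta chain is known from T cells. Dendritic cell markers were called higher for 5 (Batf3, Dpp4, Siglech, Clec9a and Itgae) and lower for 1 (Fscn1) of 12 tested. Their summed level was 79.4 to 85.3 TPM for wild type, against 107 to 116 TPM for transgenic. Within that sum mean Batf3 rose from 36.3 to 57.3 TPM. Whether these transcripts came from dendritic cells was not tested. Clec9a, a marker of the cross-presenting subset, had means of 0.716 TPM (wild type) and 1.64 TPM (transgenic) and was called (limma adjusted p = 0.0302), but not without wild type replicate 2 (0.0735) or transgenic replicate 2 (0.0862) or 3 (0.103). Xcr1, another marker of that subset, was below the filter with means of 0.359 TPM (wild type) and 0.492 TPM (transgenic), and Clec9a and Xcr1 were named after their values were seen. The part of dendritic cells in the Cd8a values was not tested.

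Cd6, a receptor of T cells and some B cells that binds ALCAM, was at 2.64, 2.77 and 3.25 TPM across wild type replicates 1 to 3, against 5.80, 4.50 and 4.61 TPM across transgenic replicates 1 to 3 (ratio of means 1.72, log2 difference 0.62 ± 0.12 SE, limma adjusted p = 0.00845). Cd5, also on chromosome 19, encodes a related receptor and was at 5.06, 3.27 and 4.65 TPM for wild type, against 4.37, 4.31 and 4.72 TPM for the transgenic replicates. Cd5 thus overlapped between groups (interval -0.26 to 0.37) while Cd6 did not. Cd2, an adhesion receptor of T and NK cells, was the member with the highest mean TPM, at 8.80, 9.90 and 10.02 TPM for wild type, against 11.9, 14.5 and 16.02 TPM for the transgenic replicates (ratio 1.47, limma adjusted p = 0.0138). Without transgenic replicate 2 its adjusted p was 0.0559. Thy1, carried by T cells, innate lymphoid cells and also by fibroblasts, was at 9.78, 10.6 and 8.25 TPM for wild type, against 9.43, 9.36 and 9.49 TPM for the transgenic replicates, with an interval of -0.22 to 0.20. Fibroblast and mural markers were called lower for 5 and higher for 0 of 9 in the same libraries (0 higher also at unadjusted limma p below 0.05, by voom and in the authors' deposited table), with a summed level of 163 to 166 TPM for wild type, against 119 to 122 TPM for transgenic. Their part in the Thy1 values was not tested. Cd96, a receptor for nectin family ligands, was at 0.789, 0.108 and 0.442 TPM for wild type, against 1.09, 1.54 and 0.939 TPM for the transgenic replicates, without overlap but with a wide spread in wild type (limma adjusted p = 0.0712). It passed without wild type replicate 1 (0.0385).

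Of the 7 granule and effector genes 4 were called higher. Gzma, which encodes granzyme A, was at 2.98, 5.01 and 4.01 TPM across wild type replicates 1 to 3, against 6.97, 6.52 and 8.44 TPM across transgenic replicates 1 to 3 (ratio of means 1.83, log2 difference 0.75 ± 0.16 SE, limma adjusted p = 0.0142, and 0.0540 without transgenic replicate 3). Gzmb, the granzyme B gene, was at 5.998, 5.77 and 6.88 TPM for wild type, against 8.80, 8.38 and 8.001 TPM for the transgenic replicates, a ratio of 1.35 (limma adjusted p = 0.0156). Its groups did not overlap, though the call was lost without wild type replicate 2 (0.0501), transgenic replicate 1 (0.0579) or transgenic replicate 2 (0.0539). Nkg7, a membrane protein of cytotoxic granules, was at 2.32, 3.39 and 2.47 TPM for wild type, against 4.72, 5.04 and 4.66 TPM for the transgenic replicates (ratio 1.76, limma adjusted p = 0.00834). It was called without any 1 of the 6 libraries. Its 83 and 150 reads per group give a counting interval of 1.34 to 2.34 for the ratio.

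Ifng, the interferon gamma gene, had the largest ratio of means of the 10 called members and the fewest reads. It was at 0.270, 0.195 and 0.331 TPM across wild type replicates 1 to 3, against 1.77, 1.22 and 1.19 TPM across transgenic replicates 1 to 3, from 4, 3 and 5 reads and 28, 18 and 19 reads. The lowest transgenic library thus stood above every wild type one, and the ratio of means was 5.24, with an exact 95% counting interval of 2.83 to 10.8 for the ratio of reads scaled by depth. The limma log2 difference was 0.91 ± 0.15 SE (adjusted p = 0.00387), smaller than the log2 of the ratio of means, 2.39, since adding 1 to a TPM below 1 shrinks the fold. The call was kept without any 1 of the 6 libraries. The wild type mean of Ifng, 0.265 TPM, was below the 0.5 TPM of the filter, which the gene passed only through its transgenic libraries. Ifng lies on chromosome 10 at 118441046 to 118445894 (mm10). Of the other effector members, Gzmk had means of 0.413 TPM (wild type) and 0.902 TPM (transgenic) with overlapping groups. Prf1, the perforin gene, was at 0.476, 0.534 and 0.311 TPM and 0.297, 0.715 and 0.661 TPM, below the filter, and 1 transgenic library was the lowest of the 6. Xcl1, a chemokine gene of NK and CD8 T cells, was at 2.54, 0.457 and 1.09 TPM in wild type and 0.891, 0.634 and 1.17 TPM in transgenic libraries, where wild type replicate 1 alone gave the group its higher mean.

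Genes of the response to interferon gamma were read from the same fit, since Ifng is a member. Of 22 tested 18 were called higher and 1 lower, with a median log2 fold change of 0.44. With 1 library left out 14 to 17 were higher. The lower one was Socs1, with means of 8.68 TPM (wild type) and 5.76 TPM (transgenic) (limma adjusted p = 0.0150). Irf1, a transcription factor of that response, had means of 107 TPM (wild type) and 149 TPM (transgenic), the class II transactivator gene Ciita 51.03 TPM (wild type) and 75.1 TPM (transgenic), the peptide transporter gene Tap1 48.96 TPM (wild type) and 70.7 TPM (transgenic) and Gbp2, a guanylate-binding protein gene, 29.9 TPM (wild type) and 45.2 TPM (transgenic), with limma adjusted p of at most 0.000101. Type I interferons induce several of these genes too, and the part of Ifng in their levels was not tested.

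NK cell receptors gave 1 called rise among very low levels. Klrk1, which encodes the activating receptor NKG2D of NK cells and CD8 T cells, was at 0.898, 0.814 and 0.679 TPM across wild type replicates 1 to 3, against 2.04, 2.88 and 2.21 TPM across transgenic replicates 1 to 3, from 95 and 290 reads per group. Its groups stood well apart, with a ratio of means of 2.98 and a log2 difference of 0.90 ± 0.13 SE (limma adjusted p = 0.00276), called without any 1 of the 6 libraries. Klrd1, the CD94 gene, lies on chromosome 6 like Klrk1 and was at 1.70, 3.28 and 2.32 TPM for wild type, against 2.48, 3.79 and 4.91 TPM for the transgenic replicates. Its libraries overlapped and it was not called (limma adjusted p = 0.210).

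Of the other NK cell genes among the members, Ncr1, Klrb1c and Eomes had low levels. Ncr1, which encodes NKp46, had no read in wild type and rested on 6, 2 and 0 reads in the transgenic ones. Against the 3 reads that a count of 0 allows over the wild type group the 8 transgenic reads, taken as exact, are at least 2.60-fold higher at equal depth. The exact 95% counting interval, which also covers the error of the 8 reads, begins at 1.67, and 1 transgenic library was also at 0. Klrb1c, the NK1.1 gene, was at 0.775, 0.626 and 0.182 TPM and 0.290, 0.341 and 0.430 TPM, so that wild type replicates 1 and 2 were the highest of the 6. Klrb1c has close relatives in the same gene cluster that could share reads. Eomes, a factor of NK and memory CD8 T cells, was at 0.241, 0.274 and 0.279 TPM and 0.0820, 0 and 0.284 TPM, from 37 and 18 reads per group, with transgenic replicate 3 level with wild type. These 3 genes were below the filter and not tested.

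The cytokine receptor genes Il7r and Il2rb were both not called. Il7r, the interleukin 7 receptor chain of T cells and innate lymphoid cells, was at 6.28, 4.81 and 4.51 TPM across wild type replicates 1 to 3, against 7.85, 6.38 and 6.94 TPM across transgenic replicates 1 to 3, without overlap and with limma adjusted p = 0.0664. It passed without wild type replicate 1 (0.0222). Il2rb, the chain shared by the interleukin 2 and 15 receptors, was at 5.15, 3.76 and 5.23 TPM for wild type, against 4.97, 4.001 and 4.77 TPM for the transgenic replicates, with overlapping groups and an interval of -0.33 to 0.27.

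Among transcription factors Tbx21 was called. It encodes T-bet and was at 0.575, 0.522 and 0.626 TPM across wild type replicates 1 to 3, against 1.47, 1.22 and 1.04 TPM across transgenic replicates 1 to 3 (ratio of means 2.16, log2 difference 0.50 ± 0.13 SE, limma adjusted p = 0.0302), with no overlap and 55 and 122 reads per group. The call held without transgenic replicate 3 and was lost without wild type replicate 1, 2 or 3 (0.0657, 0.0789 and 0.0562) or transgenic replicate 1 or 2 (0.0870 and 0.0772). Tcf7, which encodes TCF-1 of naive and memory T cells, was at 3.13, 3.13 and 4.93 TPM for wild type, against 6.49, 5.38 and 5.04 TPM for the transgenic replicates (limma adjusted p = 0.0636). Wild type replicate 3 stood between the others and the transgenic libraries, and without it Tcf7 passed (0.0127). Bcl11b, a T lineage factor, was tight within both groups, at 1.01, 0.893 and 0.931 TPM for wild type, against 1.34, 1.36 and 1.23 TPM for the transgenic replicates, and did not overlap (limma adjusted p = 0.168). Gata3, a factor of type 2 helper and innate lymphoid cells, had means of 0.522 TPM (wild type) and 0.583 TPM (transgenic), with an interval of -0.28 to 0.40.

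**Figure D2:**
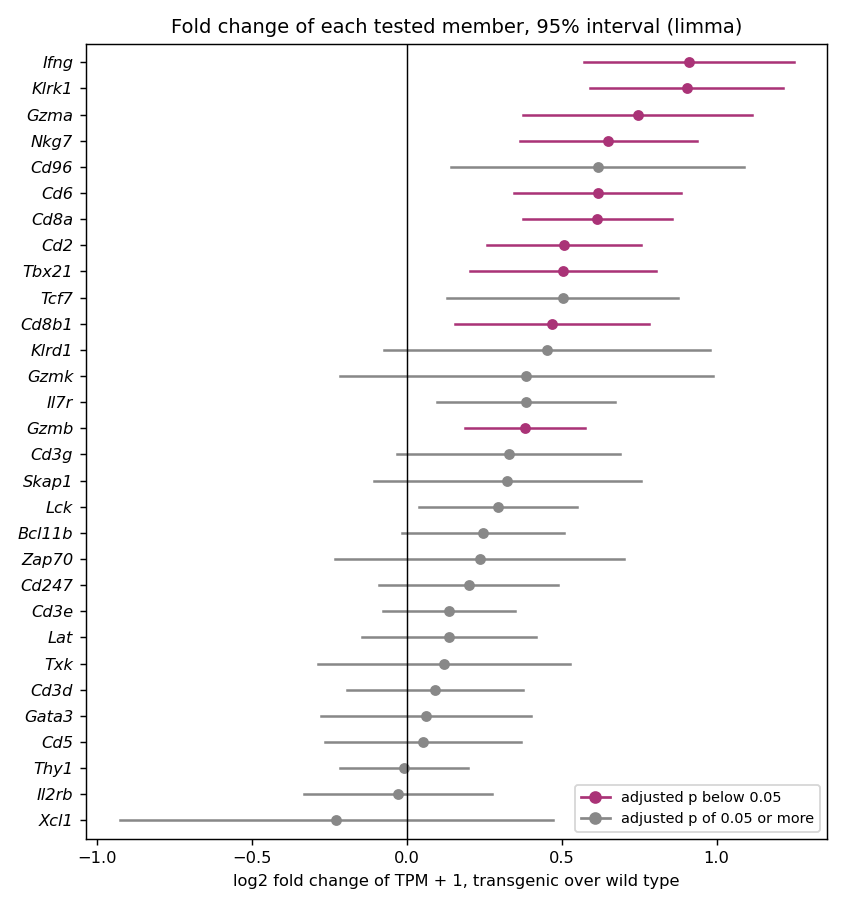
Log2 fold change on log2(TPM + 1), transgenic over wild type, for the 30 tested members (points) with 95% limma intervals (lines), in order of size. The 10 called members run from Gzmb at 0.38 to Ifng at 0.91, and the CD3 chains lie at or below 0.33 with intervals that cross 0.

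Ratios between members were taken within each library. The following ratios of TPM were chosen after the values were seen and are given without a test. The ratio of Cd8a to Cd3e was 0.277 to 0.419 in wild type and 0.495 to 0.542 in transgenic libraries. For Klrk1 to Cd3e it was 0.101 to 0.145 and 0.289 to 0.433, and for Gzma to Cd3e 0.453 to 0.891 and 0.982 to 1.10. The Cd6 to Cd5 ratio was 0.521 to 0.847 and 0.977 to 1.33. Each of these ranges was higher in transgenic libraries without overlap. The ratios of Cd2 to Cd3e (1.34 to 1.76 and 1.75 to 2.18) and of Cd8b1 to Cd8a (0.757 to 0.963 and 0.661 to 0.894) overlapped. The cytotoxic and secreted members summed to 14.9 to 15.7 TPM for wild type, against 22.7 to 25.4 TPM for transgenic, and the CD3 complex to 18.5 to 24.1 TPM for wild type, against 23.4 to 25.4 TPM for transgenic. The summed cytotoxic level thus did not overlap between groups, and the summed CD3 level did.

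**Figure D3:**
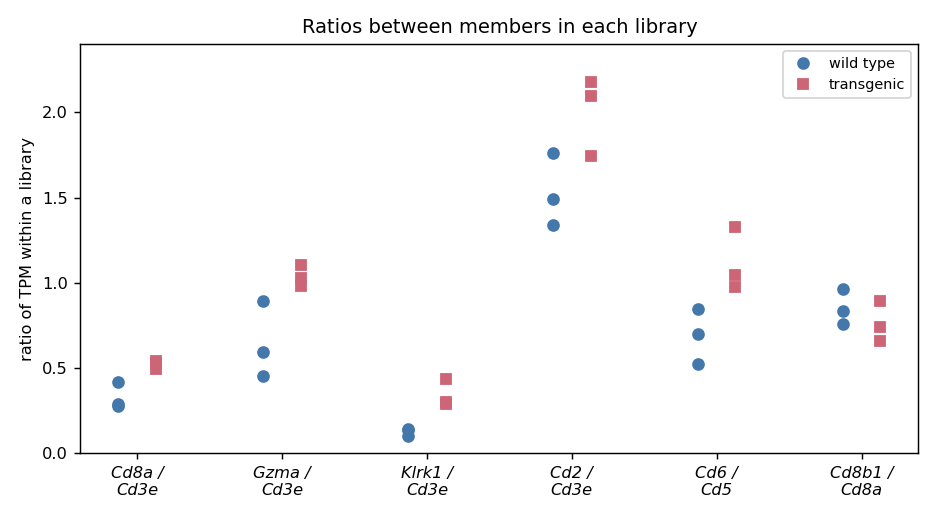
Ratio of the TPM of pairs of members within each library, with wild type libraries as circles and transgenic libraries as squares. The ratios of Cd8a, Klrk1 and Gzma to Cd3e and of Cd6 to Cd5 are higher in each transgenic library than in any wild type one, and the ratio of Cd8b1 to Cd8a overlaps.

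The spread of each member was compared with its counting error. Over the 30 tested members the median coefficient of variation was 18.7% in wild type and 12.3% in transgenic libraries, where counting error alone gives 11.6% and 10.04%. Zap70 varied by 37.0% in wild type against 10.4% from counting, with wild type replicate 2 lowest. Cd3e varied by 9.50% against 9.35%. Gzmk had 5, 3 and 9 reads across the wild type replicates, against 18, 3 and 18 across the transgenic ones. Its transgenic libraries varied by 65.3% against 27.7% from counting, with replicate 2 low, and its counting interval for the ratio was 1.24 to 4.22. It was not called (limma adjusted p = 0.348, and 0.0534 without transgenic replicate 2).

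The authors' deposited table gives row lengths equal to the gene span, taken here to mean counting with introns, though no column name states it. The table compares the same 6 libraries. It called 14 of the 34 members higher and 0 lower at adjusted p below 0.05, where 11.2% of its 20884 genes with a fold change were higher and 13.2% lower. On that table Skap1 had a log2 fold change of 0.89 (adjusted p = 7.59e-09) and Cd96 of 1.51 (adjusted p = 1.66e-05). Bcl11b, Tcf7, Lck and Il7r were also below 0.05 on that table of the authors (deposited adjusted p = 0.00528, 0.00721, 0.0115 and 0.0358), while Nkg7 and Cd8b1 were not (0.0661 and 0.117). The CD3 genes and Cd247 were not called there either, with adjusted p of at least 0.123. Txk differed most in its fold, -0.27 by the authors' deposited table against a log2 ratio of mean exon TPM of 0.27, and Gata3 was at 0.67 against 0.16.

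**Figure D4:**
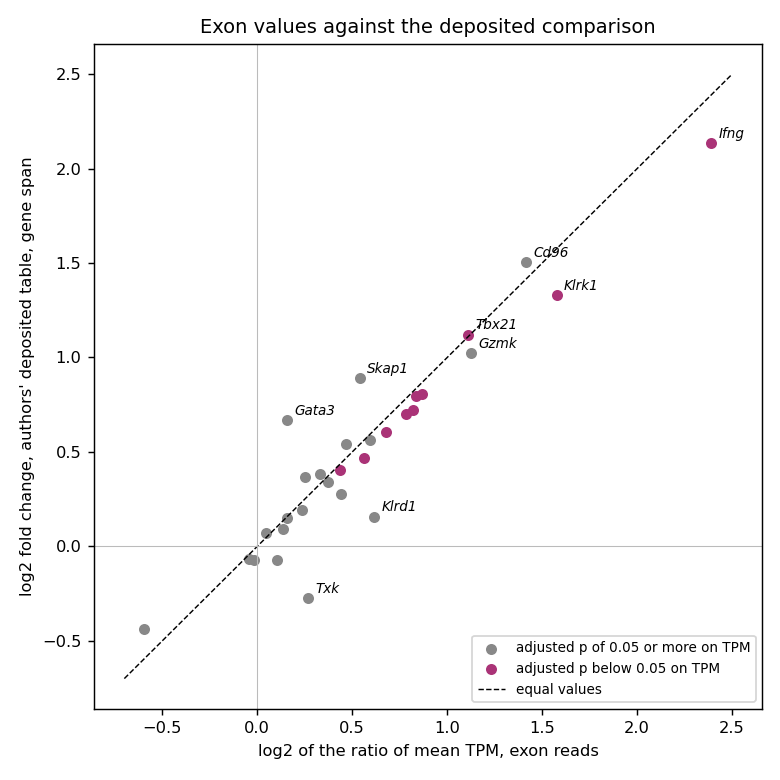
Log2 ratio of mean exon TPM (horizontal) against the log2 fold change of the authors' deposited table (vertical) for the 30 tested members. The dashed line marks equal values, and the gene span named on the vertical axis was inferred from row lengths. Ifng, Klrk1, Cd96 and Tbx21 are high on both axes, Skap1 and Gata3 lie above the line, and Klrd1 and Txk below it.

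Other lymphoid genes, listed apart from the members, were called in both directions. Of 10 tested NK and cytotoxic genes outside the members 4 were called higher and 1 lower (median 0.34), and 16 of the 26 in the file were below the filter. With 1 library left out 2 to 4 were higher. Ccl5, a chemokine gene of cytotoxic lymphocytes and of macrophages, rose from 35.2 to 58.5 TPM. Cd226, an activating receptor gene, had means of 0.678 TPM (wild type) and 2.51 TPM (transgenic) (limma adjusted p = 0.00107). Fasl, the death ligand gene, had means of 0.363 TPM (wild type) and 1.36 TPM (transgenic) (limma adjusted p = 0.0292), a call that held only without wild type replicate 1 and otherwise rose to between 0.0667 and 0.0901 on leaving out 1 library. Cd244a, which macrophages may also carry, was lower, with means of 16.9 TPM (wild type) and 12.8 TPM (transgenic). Of 26 other tested T cell genes 6 were higher and 2 lower (median 0.16), and 1 to 4 were higher with 1 library left out, the 1 without transgenic replicate 2. The costimulatory receptor gene Cd28 had means of 3.43 TPM (wild type) and 4.99 TPM (transgenic), a call lost without wild type replicate 3 (0.0566) or transgenic replicate 1 (0.0719) or 3 (0.0827). Cd4, which colon macrophages are known to express, was picked for mention with its value known and had means of 87.4 TPM (wild type) and 89.6 TPM (transgenic).

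Helper, regulatory and innate lymphoid genes outside the members were called in both directions. Of 14 tested 1 was higher and 2 lower (3 and 4 by voom, 2 and 5 of all 20 in the authors' deposited table, and 0 to 1 and 1 to 2 with 1 library left out), with a median of -0.06. Il17a, the interleukin 17A gene, fell from 2.82 to 1.02 TPM (limma adjusted p = 0.0290), but it was not called without wild type replicate 1, 2 or 3 (0.0621, 0.0683 and 0.0913), with a pseudocount of 0.1 TPM (0.0613) or with no filter (0.0617). Foxp3, the factor of regulatory T cells, had means of 8.02 TPM (wild type) and 6.42 TPM (transgenic) (limma adjusted p = 0.0756, 0.0240 without wild type replicate 2 and 0.0162 by voom) and was called lower in the authors' deposited table (adjusted p = 0.00307). Areg, which encodes amphiregulin and is also made by myeloid cells, fell from 21.1 to 14.2 TPM. Il1rl1, the interleukin 33 receptor gene, had means of 0.791 TPM (wild type) and 1.78 TPM (transgenic) (limma adjusted p = 0.0228), a call lost without wild type replicate 1 or 2 (0.0521 and 0.0678) or transgenic replicate 1 or 3 (0.0688 and 0.0683).

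Ligands through which macrophages act on lymphocytes were called both ways, 8 higher and 2 lower of 19 tested (5 to 8 higher with 1 library left out, the 5 without wild type replicate 3 or transgenic replicate 1). Cxcl10, a chemokine for CXCR3-bearing T and NK cells, rose from 102 to 141 TPM, and Il12b, the shared subunit of interleukins 12 and 23, from 1.92 to 3.78 TPM. The costimulatory ligand genes Cd80 and Cd86 fell, from 43.4 to 32.5 TPM and from 86.2 to 72.6 TPM.

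Markers of other cells were read beside the members in the same libraries. B cell and plasma cell markers gave 1 higher and 0 lower of 14. Lower were 1 at an unadjusted limma p below 0.05, 0 by voom and 4 in the authors' deposited table. Their median log2 fold change was -0.06, with 5 positive and 9 negative. The higher one was the plasma cell gene Jchain, with means of 165 TPM (wild type) and 204 TPM (transgenic). The summed level of these markers was 275 to 286 TPM for wild type, against 315 to 326 TPM for transgenic. The mean of this sum, 282 TPM (wild type) and 319 TPM (transgenic), rose by no more than mean Jchain did. Epithelial markers gave 7 lower of 10, neutrophil markers 7 lower of 9 and endothelial markers 5 lower of 6. None of these 3 lists had a gene called higher by limma, voom or in the authors' deposited table, and at an unadjusted limma p below 0.05 there was 1 higher epithelial marker. Upper-quartile scaling called 1 epithelial marker higher. With 1 library left out 3 to 4 endothelial markers were lower. The epithelial markers summed to 1031 to 1039.7 TPM for wild type, against 570.4 to 579 TPM for transgenic. The neutrophil sum was 1006 to 1037 TPM for wild type, against 413 to 469.9 TPM for transgenic. S100a8 and S100a9 made up most of this sum, with means of 409 and 439 TPM (wild type), against 154 and 187 TPM (transgenic). Csf3r, another of these markers, had means of 58.9 TPM (wild type) and 56.8 TPM (transgenic) and was not called (limma adjusted p = 0.435). The endothelial sum was 51.8 to 56.1 TPM for wild type, against 32.8 to 37.8 TPM for transgenic. Mast cell markers gave 1 higher and 1 lower of 4. No marker of these lists was at 0 in all 6 libraries. Their part in the lymphoid values was not tested.

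**Figure D5:**
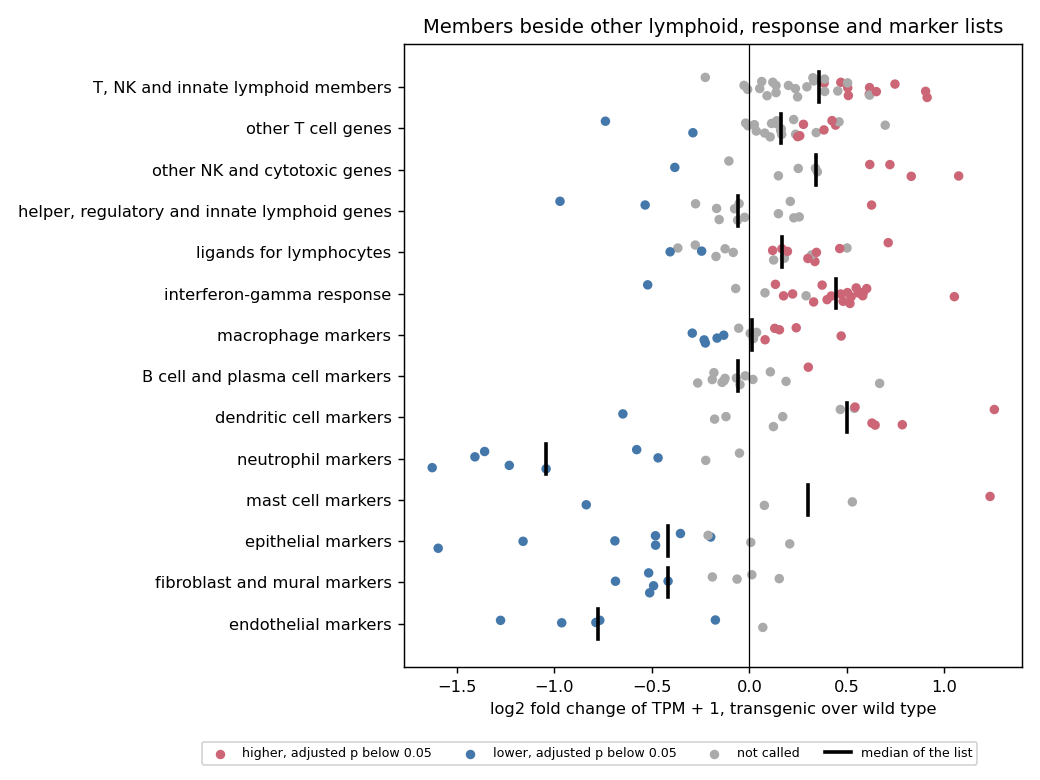
Log2 fold change on log2(TPM + 1), transgenic over wild type, for each tested gene of the members and of 13 other lists, coloured by call, with the median of each list as a bar. The members' median lies at 0.36, near that of other NK and cytotoxic genes at 0.34, and the epithelial, fibroblast, neutrophil and endothelial medians lie below 0.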

How the data were processed

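The 6 libraries were grouped by their titles. Per the submitters' processing notes, bcl2fastq, STAR, HOMER 4.11.1 and DESeq2 were used on build mm10, with order and settings not given in the sources used here. The authors deposited TPM per RefSeq gene row. Their other deposited table holds log2 expression for each library and log2 fold changes with each p-value raw and adjusted. The length of 100% of its rows is the gene's end less its start, from which counting over the gene span was inferred.

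Within each library, TPM multiplied by exon length came in whole steps (100% of 13473 to 14238 values, tolerance 0.1 reads), which gave reads per gene. A count of 0 allows up to 3 reads, or 0.113 to 0.122 TPM at 2000 bases of exon. This limit and the counting intervals (exact binomial, 95%) cover counting error only.

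limma 3.58.1 (R 4.3.3, trend) was fitted to log2(TPM + 1) with a genotype term for the 13463 genes whose mean over all 6 libraries reached 0.5 TPM, a filter that does not look at the groups. Genes high in 1 group can still pass through that group alone. The members Ifng, Cd96 and Gzmk, with wild type means of 0.265, 0.446 and 0.413 TPM, passed through their higher transgenic values. So did some genes of other lists, such as Fasl (wild type mean 0.363 TPM). Klrb1c, with means of 0.528 TPM (wild type) and 0.354 TPM (transgenic), did not pass. The counts and medians of the lists include the genes that passed in this way. Lists are described by counts and medians. Alternatives were a pseudocount of 0.1 TPM, no filter or a filter of 1 TPM, upper-quartile and median-of-ratios scaling, the replicate block, limma's voom on recovered reads, the authors' deposited comparison and leaving out each library. Of each other list up to 4 tested genes with the lowest unadjusted p could be named, and 1 of them is not reported here. Members and lists were chosen with earlier results of these data known. In simulated data 13390 genes were tested and 5.30% of calls were false. Recovered were 14 of 50 changed by 1.25-fold, 26 of 50 by 1.5-fold, 42 of 50 by 2-fold and 43 of 50 by 4-fold. These rates are not split by read count. The simulated variance was the same multiple of the mean for every gene, and only genes above a floor of expected reads were changed. Spread in the real libraries differed between genes. In wild type Zap70 varied by 37.0% against 10.4% from counting, and Cd3e by 9.50% against 9.35%. Whether the rates hold for genes of larger spread was not tested. Recovery and false calls at the read counts of the low members, such as Ifng, were not tested.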

Additional observations from a re-analysis of the deposited data

How the results depend on the processing

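Over the alternatives tried the number of members called higher ranged from 8 to 14, and from 6 to 10 with 1 library left out, the 6 without transgenic replicate 2. No alternative called a member lower. Over all genes, upper-quartile scaling gave 2109 higher and 921 lower, or 69.6% of calls higher against 39.3%. It moved the median log2 fold change of all genes to 0.07 and the ratio of the members' summed TPM from 1.32 to 1.41. Voom on recovered reads gave 1629 higher, and the analysis deposited by the authors gave 2343 higher and 2756 lower. With 1 library left out, 677 to 856 genes were higher and 1205 to 1336 lower, and the ratio of the members' summed TPM was 1.30 to 1.33. The direction of some members that were not called turned: Cd3d to -0.0718 and Txk to -0.27 in the authors' deposited table, Thy1 to 0.0770 and Il2rb to 0.0508 with upper-quartile scaling, and Thy1 to 0.00777 with median-of-ratios scaling. Cd4 turned to -0.00240 in the authors' deposited table. With 1 library left out the log2 fold change spanned -0.00576 to 0.20 for Cd3d, -0.0989 to 0.15 for Cd5, -0.10 to 0.0619 for Thy1, -0.00672 to 0.21 for Lat, -0.0146 to 0.26 for Txk, -0.53 to 0.11 for Xcl1, -0.15 to 0.0492 for Il2rb and -0.0335 to 0.15 for Gata3. The cause of these changes was not tested. Whether the replicate numbers pair the libraries was not settled. Deviations of same-numbered libraries correlated at 0.00763, 0.0561 and 0.0254, and those of differently numbered ones at -0.0617 to 0.0341. Wild type replicate 1 correlated best with transgenic replicate 3, and wild type replicates 2 and 3 with the transgenic library of the same number. With the replicate block 9 members and 895 genes were higher and 0 and 1432 lower. The block ended the calls of Tbx21 (adjusted p = 0.0685), Cd8b1 (0.0979) and Cd28 (0.0564) and added Il7r (0.0391). Cd8b1 was not called with no filter (adjusted p = 0.0848) or by voom (0.0732).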
